A study of Mus musculus with 12 samples.

Results

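Growth hormone reaches hepatocytes through its receptor and acts there largely through the kinase JAK2 and the transcription factor STAT5. The 10 genes described here are the receptor Ghr, the hormone-dependent secreted products Igf1 and Igfals, the feedback genes Socs2 and Cish, the male-biased liver genes Elovl3, Hsd3b5 and Slco1a1, and the transcriptional repressors Bcl6 and Cux2. They were chosen by name for their known place in growth hormone signalling, with their levels and differences in these same libraries already known, and they are 10 of the 54839 features of the count table. All 10 passed the filter on low counts and entered the fit with 17121 features in all. Because the choice was made with the values in view, the differences of the 10 genes are given below as a description, and no p-value is printed for them. Whether a gene passed the thresholds, and under which settings, is given as a description too, and is no test of these genes.

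The study sequenced polyA RNA of hepatocytes from male p16-Tom mice, in 4 groups of 3 libraries: Tom- oil, Tom+ oil, Tom- CCl4 and Tom+ CCl4. All mice were C57BL/6 and heterozygous for p16-CreERT2 together with the R26-CAG-LSL-tdTomato-WPRE reporter, and all received tamoxifen, so that cells in which the p16 promoter drives the recombinase, and cells that descend from them, carry the red protein tdTomato (Tom+). Mice were given repeated intraperitoneal injections of carbon tetrachloride (CCl4) in corn oil, a hepatotoxin used to produce liver fibrosis, or corn oil without it. The liver was digested with collagenase, and DAPI- cells were sorted into Tom+ and Tom- fractions. The ages of the mice were not given in the sources used here. The comparison of CCl4 with oil asks how these genes differ in injured liver, and the comparison of Tom+ with Tom- asks how they differ in cells with a history of p16 expression.

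In the liver, growth hormone binding to its receptor activates JAK2, which phosphorylates STAT5A and STAT5B. STAT5 dimers then enter the nucleus and bind sites of the form TTCNNNGAA near genes such as Igf1, Igfals, Socs2 and Cish, the last of which, with Socs2, dampens the receptor signal. Rodent pituitaries release the hormone in pulses in males and more continuously in females, and a large set of liver genes is higher in one sex as a result. BCL6 is a repressor that is more abundant in male liver and competes with STAT5 for sites, and CUX2 is a repressor that is more abundant in female liver, where it lowers male-biased genes.

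Totals ran from 37568584 to 75331424 counts per library (median 47910752), so that 3 counts in a library correspond to between 0.0398 and 0.0799 CPM (counts scaled to a fixed library total). Levels are given as CPM scaled with the trimmed mean of M values, and as TPM, which also divides by gene length, where genes are compared with each other. The libraries looked like hepatocytes: the 6 hepatocyte markers summed to between 92004 and 141617 CPM. The Y-linked genes Ddx3y, Eif2s3y, Kdm5d and Uty were detected in every library, and Xist was at 0.213 CPM or less. Before the results, a limit of the oil libraries has to be given. A feature without a gene name, ENSMUSG00000999992, lies on an added sequence and was taken as the tdTomato reporter. It was at 1793 CPM in the library labelled Tom- oil replicate 1 and at 135 CPM in the library labelled Tom+ oil replicate 2. The 5 other libraries labelled Tom- were between 120 and 263 CPM, and the 5 other libraries labelled Tom+ were between 1225 and 1546 CPM. The reporter thus went against the labels of 2 oil libraries, and results that rest on the oil libraries are given with and without them.

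Promoter windows from RefSeq (GRCm38.p6, the build of the deposited coordinates) were found for 8 of the 10 genes, 13 windows in all, each from 250 bases before to 50 bases after an annotated start. Those of Bcl6, Igfals, Slco1a1 and Cux2 are shown since these genes represent the repressors, the secreted products and the male-biased genes, and Cish is shown for the pair of sites at its start. Each stretch is printed 5′ to 3′ on the strand of its gene. Capitals mark TTCNNNGAA in Bcl6, Igfals and Cish and ATCGAT, a form of the site that CUX2 shares with HNF6, in Cux2. Both motifs read the same on either strand.
Bcl6, chr16:23981284-23981533, minus strand: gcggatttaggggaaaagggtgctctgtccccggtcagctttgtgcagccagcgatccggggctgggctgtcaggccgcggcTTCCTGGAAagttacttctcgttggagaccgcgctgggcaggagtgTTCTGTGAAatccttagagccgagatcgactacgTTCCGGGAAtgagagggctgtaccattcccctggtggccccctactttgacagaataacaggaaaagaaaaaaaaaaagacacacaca
Igfals, chr17:24877981-24878230, plus strand: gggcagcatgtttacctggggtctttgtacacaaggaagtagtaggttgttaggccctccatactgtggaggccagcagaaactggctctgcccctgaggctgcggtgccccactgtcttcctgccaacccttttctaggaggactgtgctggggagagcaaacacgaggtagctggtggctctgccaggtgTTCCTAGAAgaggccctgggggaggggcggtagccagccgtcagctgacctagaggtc
Cish, chr9:107296659-107296678, plus strand: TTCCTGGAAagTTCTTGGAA
Slco1a1, chr6:141946963-141947212, minus strand: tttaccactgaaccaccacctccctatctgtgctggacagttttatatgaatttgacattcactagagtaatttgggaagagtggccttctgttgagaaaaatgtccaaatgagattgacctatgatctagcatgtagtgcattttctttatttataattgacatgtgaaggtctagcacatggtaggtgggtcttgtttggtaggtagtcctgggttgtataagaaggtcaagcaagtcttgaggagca
Cux2, chr5:122047826-122048075, minus strand: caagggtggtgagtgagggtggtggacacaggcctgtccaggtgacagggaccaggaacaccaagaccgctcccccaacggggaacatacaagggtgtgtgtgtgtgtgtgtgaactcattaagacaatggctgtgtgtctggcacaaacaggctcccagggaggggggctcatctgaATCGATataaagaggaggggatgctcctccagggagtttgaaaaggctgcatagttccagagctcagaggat

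The Bcl6 stretch lies inside the gene and outside its annotated exons, before the inner of 2 starts, and held 3 matches, at 168, 122 and 88 bases before that start. The window of the outer Bcl6 start held 1 match. The Cish matches begin at an annotated start, at 107296659, and 11 bases after it. All 250 bases before that start fall in annotated untranslated regions. The deposited model of Cish begins at 107296026, so these matches lie inside the gene. The printed Igfals match lies 58 bases before the start at 24878231, in a stretch of which 16 of 250 bases fall in annotated exons of the gene. The window of the Igfals start at 24877844 held 1 match, 236 bases before it, and that of the start at 24878747 held none. The Slco1a1 stretch, which lies outside annotated genes, held no TTCNNNGAA. Over all windows of the same length, 2722 of 32817 held TTCNNNGAA (8.29%), and 5 of the 13 windows of these genes held it, from 3 genes. ATCGAT was in 304 of 32817 windows (0.926%) and in 1 of the 13, that of the inner Cux2 start at 122047825. The match lies 72 bases before that start, in a stretch of which 66 bases fall in annotated exons. The window of the outer Cux2 start, at 122049851, held no ATCGAT. A match is a description of the letters and not a bound site.

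Per length of transcript, Igfals, Igf1 and Ghr were the most abundant of the 10 genes in all 4 groups. In Tom- oil cells Igfals was at 161 ± 10.1 TPM, Igf1 at 156 ± 25.1 TPM and Ghr at 147 ± 7.24 TPM (SD, n = 3), and the ranges of neighbours in this order overlapped. Slco1a1 followed at 53.1 ± 16.2 TPM, below all 3 without overlap. The other 6 genes lay between 8.48 ± 4.19 TPM for Elovl3 and 1.88 ± 1.17 TPM for Hsd3b5, each overlapping its neighbour in the order. After CCl4 the order changed at its lower end. In Tom- CCl4 cells Slco1a1 was at 5.73 ± 2.15 TPM, with a range that overlapped those of Cux2 and Socs2, and Hsd3b5 and Elovl3 were last at 0.126 ± 0.116 and 0.0452 ± 0.04 TPM, below Bcl6 at 3.08 ± 1.35 TPM.

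**Figure D1:**
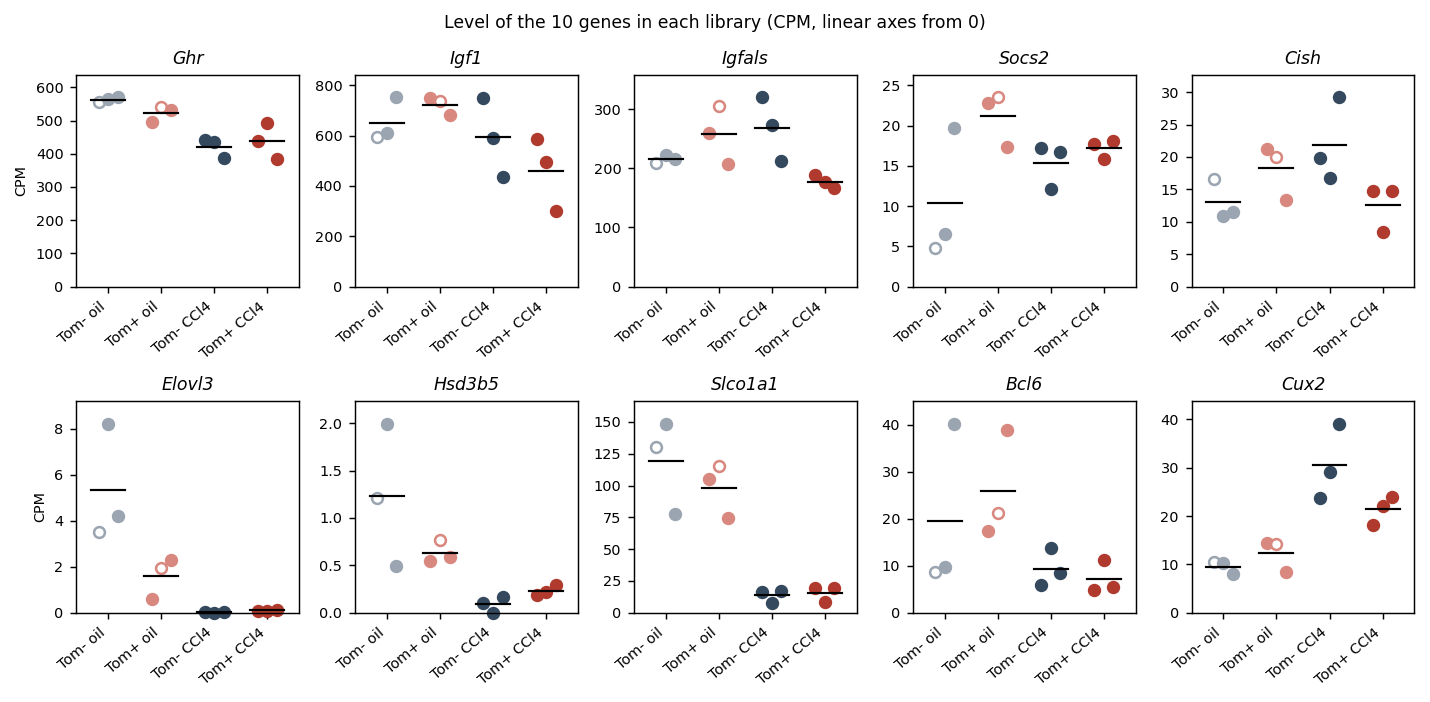
Level of each of the 10 genes in the 12 libraries. Each panel is 1 gene with CPM on a linear axis from 0, points are libraries in order of replicate number, horizontal lines are group means, and open points are the libraries labelled Tom- oil replicate 1 and Tom+ oil replicate 2, whose reporter goes against the label. Elovl3, Hsd3b5 and Slco1a1 sit lower in all 6 CCl4 libraries than in all 6 oil libraries, Cux2 sits higher in all 6, and Bcl6 and Socs2 have 1 oil library or more far from the rest.

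CCl4 against oil in Tom- cells gave 4 of the 10 genes past both thresholds (a Benjamini-Hochberg adjusted p under 0.05 by edgeR's quasi-likelihood test over all features, and a log2 fold change larger than 0.75 in size). Elovl3, Hsd3b5 and Slco1a1 were lower and Cux2 was higher. In the same comparison 6.33% of the features tested were called higher and 1.59% lower, and since the genes were chosen with these values known, nothing is read from the difference in shares. In Tom+ cells 3 genes passed, Elovl3 and Slco1a1 lower and Cux2 higher, where 2.9% of features were called higher and 2.34% lower. Without the 2 oil libraries in doubt the counts were 4 in Tom- and 2 in Tom+ cells, beside 5.46% and 3.5% of features called in either direction, and Cux2 was the gene that no longer passed in Tom+ cells. The groups did not overlap for 6 of the 10 genes in Tom- cells, where this was so for 36% of the features tested, and for 8 in Tom+ cells, where it was so for 29.3%. With counts summed over both fractions of the same number, Elovl3, Hsd3b5, Slco1a1 and Cux2 passed, beside 4.78% of features called in either direction.

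Elovl3 encodes an elongase of very long chain fatty acids, and its deposited model spans chr19:46131897-46135307 on the plus strand. Here and below, values are listed in the order of the replicates 1, 2 and 3. Elovl3 was at 3.53, 8.23 and 4.23 CPM in Tom- oil, and the Tom+ oil values were 0.607, 1.95 and 2.3 CPM. After CCl4 it was at 0.0505, 0 and 0.0422 CPM in Tom- cells, from 2, 0 and 2 counts, and at 0.0984, 0.0873 and 0.125 CPM in Tom+ cells, from 8, 4 and 6 counts. Every CCl4 library was thus below every oil library, in both fractions. From the summed counts, 766 in Tom- oil and 4 in Tom- CCl4, the level in oil was 170 times that in CCl4 (95% exact interval 66.2 to 626, counting error only). The fitted log2 fold change was -7.26 (SE 0.70), which with so few counts depends on the prior count, and -3.92 (SE 0.58) in Tom+ cells. Without the 2 oil libraries in doubt these were -7.48 and -3.75. With limma-voom Elovl3 did not pass in Tom+ cells.

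Slco1a1 encodes the organic anion transporter OATP1A1 of the hepatocyte membrane, at chr6:141907282-141946962 on the minus strand. It was at 130, 149 and 77.7 CPM in Tom- oil and at 105, 116 and 74.3 CPM in Tom+ oil. CCl4 libraries held 16.4, 7.68 and 17.3 CPM in Tom- cells and at 19.8, 8.51 and 19.2 CPM in Tom+ cells. The lowest oil library was well above the highest CCl4 library, and Tom- and Tom+ cells with the same number lay close together within each treatment. Fitted log2 fold changes were -3.10 (SE 0.43) in Tom- and -2.63 (SE 0.42) in Tom+ cells, and -3.03 and -2.49 without the 2 oil libraries in doubt. Slco1a1 passed both thresholds under all 22 alternatives in both fractions.

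Hsd3b5 encodes a steroid reductase of the 3-beta-hydroxysteroid dehydrogenase family, whose members are near-identical in sequence, so that reads may be shared with them. Its deposited model spans chr3:98618634-98630252 on the minus strand. It was low already in the oil libraries, at 1.21, 2 and 0.49 CPM in Tom- and 0.549, 0.763 and 0.587 CPM in Tom+ cells, which is 24 to 103 and 24 to 40 counts. After CCl4 the values were 0.101, 0 and 0.169 CPM in Tom- cells and at 0.185, 0.218 and 0.292 CPM in Tom+ cells. All 6 CCl4 libraries were below all 6 oil libraries, although by a small absolute amount. The log2 fold change was -3.67 (SE 0.71) in Tom- cells and -1.45 (SE 0.63) in Tom+ cells, where Hsd3b5 did not pass. Its values were -3.69 (SE 0.82) and -1.29 (SE 0.75) without the 2 oil libraries in doubt.

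Cux2, at chr5:121856366-122050102 on the minus strand, was the only one of the 10 genes past both thresholds in the upward direction. Its levels were 10.5, 10.2 and 7.95 CPM in Tom- oil and 14.5, 14.2 and 8.42 CPM in Tom+ oil. In CCl4 they were 23.7, 29 and 39.1 CPM in Tom- cells and 18.2, 22.1 and 23.9 CPM in Tom+ cells. No CCl4 library fell within the range of the oil libraries. The log2 fold change was 1.68 (SE 0.23) in Tom- cells and stayed past both thresholds under all 22 alternatives, with values from 1.18 to 1.83. In Tom+ cells it was 0.78 (SE 0.22), just over the threshold. Leaving out the 2 oil libraries in doubt gave 1.76 (SE 0.27) and 0.90 (SE 0.26), and the second did not pass. In comparisons of CCl4 with oil, here and below, the replicate number as a block joins oil and CCl4 libraries that share only that number. In Tom+ cells Cux2 did not pass with this block (0.78, SE 0.25), and it passed in 4 of the 12 fits that left out 1 library each, with values from 0.57 to 0.91. Leaving out Tom+ oil replicate 3 took it to 0.57.

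Bcl6, the other repressor, at chr16:23965052-23988852 on the minus strand, ran from 8.75 to 40.3 CPM among the oil libraries. It was at 8.75, 9.69 and 40.3 CPM in Tom- oil and at 17.4, 21.2 and 39 CPM in Tom+ oil. The 2 libraries numbered 3 were the highest of the 12. The CCl4 libraries were at 5.86, 13.8 and 8.57 CPM in Tom- cells and at 4.95, 11.3 and 5.43 CPM in Tom+ cells. The groups overlapped in Tom- cells and did not in Tom+ cells. The log2 fold change was -1.06 (SE 0.67) in Tom- cells and -1.85 (SE 0.68) in Tom+ cells, neither past both thresholds, and the second passed with DESeq2. The values for Bcl6 without the 2 oil libraries in doubt were -1.41 (SE 0.69) and -1.97 (SE 0.70), neither past both. Without Tom- oil replicate 3 the first became 0.02 (SE 0.49), and the second stayed at -1.85 and passed, with a smaller SE of 0.45. Macrophage markers were also highest among the oil libraries in the libraries numbered 3, with summed levels of 76.9 CPM in Tom- and 118 CPM in Tom+ cells against 15.1 to 27.8 CPM in the other oil libraries, and their part in the Bcl6 level was not tested.

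Ghr, the growth hormone receptor, at chr15:3317760-3583492 on the minus strand, changed little in size but evenly. It was at 555, 564 and 570 CPM in Tom- oil and 497, 541 and 531 CPM in Tom+ oil. In CCl4 it was at 443, 435 and 387 CPM in Tom- cells and 440, 492 and 384 CPM in Tom+ cells. Every CCl4 library was below every oil library. This gave log2 fold changes of -0.42 (SE 0.10) in Tom- and -0.25 (SE 0.10) in Tom+ cells, inside the fold threshold in all alternatives. For Ghr they were -0.42 and -0.22 without the 2 oil libraries in doubt.

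Igf1 encodes insulin-like growth factor 1, the main circulating mediator of growth hormone, and lies at chr10:87858265-87937042 on the plus strand. It was at 592, 610 and 752 CPM in Tom- oil and 749, 739 and 681 CPM in Tom+ oil. With CCl4, Igf1 was at 749, 591 and 437 CPM in Tom- cells and 588, 496 and 299 CPM in Tom+ cells. The groups overlapped in Tom- cells, and in Tom+ cells each CCl4 library was below each oil library. Its log2 fold change was -0.14 (SE 0.23) in Tom- and -0.65 (SE 0.23) in Tom+ cells, neither past both thresholds, and without Tom+ CCl4 replicate 1 the second was -0.87 and passed. Igf1 was at -0.20 and -0.63 without the 2 oil libraries in doubt.

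Igfals encodes the acid-labile subunit that holds IGF1 in the circulation, at chr17:24865997-24882010 on the plus strand. It was at 210, 223 and 216 CPM in Tom- oil, a narrow range, and at 260, 305 and 208 CPM in Tom+ oil. With CCl4, Igfals was at 320, 273 and 213 CPM in Tom- cells and 188, 177 and 167 CPM in Tom+ cells. The values overlapped in Tom- cells and were lower in all 3 CCl4 libraries in Tom+ cells. The log2 fold changes had opposite signs, 0.32 (SE 0.15) in Tom- and -0.54 (SE 0.15) in Tom+ cells, and neither reached the fold threshold. Without the 2 oil libraries in doubt they were 0.30 and -0.39.

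Socs2, which encodes a suppressor of cytokine signalling that acts on the receptor, at chr10:95385362-95417180 on the minus strand, was at 4.82, 6.59 and 19.7 CPM in Tom- oil and 22.8, 23.5 and 17.3 CPM in Tom+ oil. In CCl4 it was at 17.2, 12.1 and 16.8 CPM in Tom- cells and 17.7, 15.9 and 18.1 CPM in Tom+ cells. Tom- oil replicates 1 and 2 were below all 10 other libraries. For Socs2 the log2 fold change was 0.56 (SE 0.43) in Tom- and -0.30 (SE 0.42) in Tom+ cells. Leaving out Tom- oil replicate 3 took the first to 1.42 (SE 0.20), past both thresholds, and leaving out the 2 oil libraries in doubt took it to 0.23 (SE 0.39) and the Tom+ value to -0.22 (SE 0.38).

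Cish, which encodes the cytokine-inducible SH2 protein, lies at chr9:107296026-107302784 on the plus strand. It was at 16.7, 10.9 and 11.6 CPM in Tom- oil and 21.3, 20.1 and 13.4 CPM in Tom+ oil. In CCl4 it was at 19.9, 16.7 and 29.2 CPM in Tom- cells and 14.8, 8.36 and 14.7 CPM in Tom+ cells. Tom- CCl4 cells held the highest value, and Tom+ CCl4 replicate 2 the lowest. For Cish the log2 fold change was 0.75 (SE 0.28) in Tom- cells and -0.53 (SE 0.28) in Tom+ cells, neither past both thresholds. With DESeq2 the first passed. Cish was at 0.97 (SE 0.32) and -0.45 (SE 0.31) without the 2 oil libraries in doubt, neither past both.

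**Figure D2:**
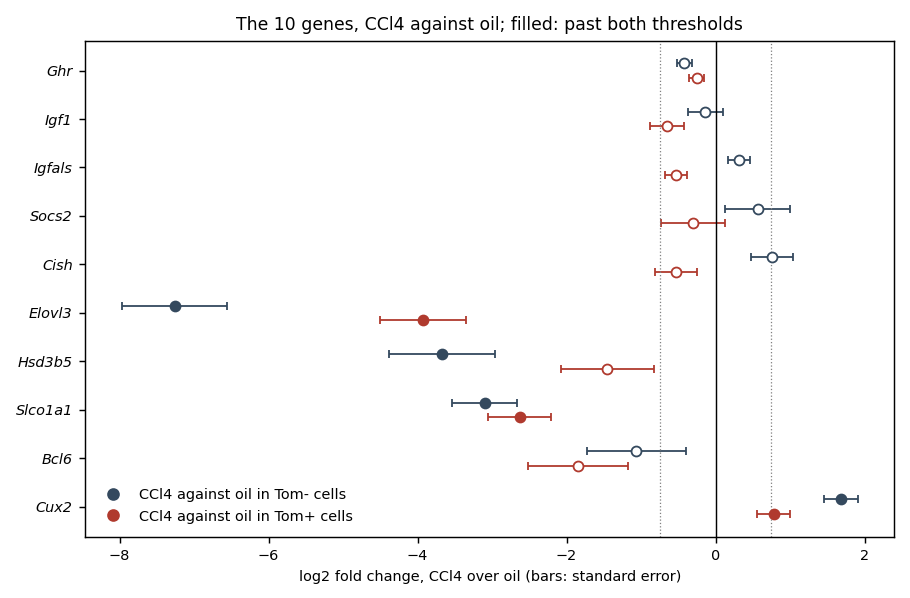
Log2 fold change of CCl4 over oil for the 10 genes in Tom- (dark) and Tom+ (red) cells, with standard errors as bars. Filled points passed both thresholds, dotted lines mark the fold threshold of 0.75, and the largest difference is that of Elovl3 in Tom- cells at -7.26.

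Markers of other liver cells also differed between CCl4 and oil. The 7 stellate cell markers summed to 62.5 to 79.5 CPM in Tom- CCl4 against 6.9 to 15.4 CPM in Tom- oil, with 6 of 7 called higher, and to 47.1 to 93.5 CPM in Tom+ CCl4 against 8.51 to 21.2 CPM in Tom+ oil, with 5 of 7 called higher. The 6 endothelial markers were all called higher in Tom- cells and none in Tom+ cells. The 7 macrophage markers summed to 91.3 to 122 CPM in Tom- CCl4 against 15.1 to 76.9 CPM in Tom- oil, and none was called. The cholangiocyte markers Krt19 and Krt7 were at 0 in all oil libraries, and the 6 lymphocyte markers summed to 4.45 CPM or less in every library. In bulk libraries fewer cells of a type and less RNA per cell cannot be told apart, and the part of other cells in the differences of these genes was not tested. Markers of position in the lobule moved too. In Tom+ cells all 7 zone 3 (pericentral) genes had log2 fold changes above 0 in CCl4, with a median of 2.16 and 3 called higher, and all 6 zone 1 (periportal) genes were below 0, with a median of -1.61 and 4 called lower. In Tom- cells 3 of the 7 zone 3 genes were above 0 and 4 below, with a median of -0.29 and 1 called lower, and the 6 zone 1 genes were all below 0, with a median of -0.38 and none called. Their part in the results was not tested. The hepatocyte markers, beside which Elovl3, Hsd3b5 and Slco1a1 were lower, summed to 129615 to 141617 CPM in Tom- CCl4 and 92004 to 122895 CPM in Tom- oil, and to 100703 to 114779 CPM in Tom+ CCl4 and 108889 to 119889 CPM in Tom+ oil.

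Within CCl4-treated mice, none of the 10 genes passed both thresholds between Tom+ and Tom- cells, where 1.96% of the features tested did. At an unadjusted p under 0.05 edgeR gave 3 of the 10, DESeq2 called 1 and limma-voom 0. Here and below, the shares of all features by these rules were not counted, and nothing is read from such counts. The groups did not overlap for 4 of the 10 genes, Igfals, Cish, Elovl3 and Hsd3b5, where this was so for 28.7% of features. Libraries of the same number shared deviations across the fractions, so the pairs are informative. Cish was lower in Tom+ cells in 3 of 3 pairs, with differences of -0.42, -0.99 and -0.99 on the log2 scale. Its fitted log2 fold change was -0.80 (SE 0.28), and in the fit blocked on the number it was -0.80 (SE 0.14) and passed, the only one of the 10 genes to do so, where 3.98% of features passed. Igfals was lower in 3 of 3 pairs as well, at -0.60 (SE 0.15), inside the fold threshold. Cux2 at -0.52 (SE 0.22), Igf1 at -0.36 (SE 0.23) and Bcl6 at -0.39 (SE 0.67) were each lower in 3 of 3 pairs. Elovl3, Hsd3b5, Slco1a1 and Socs2 were higher in 3 of 3 pairs, Elovl3 and Hsd3b5 at levels of 15 counts or fewer.

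The lobular markers differed between these fractions as well. The 7 zone 3 genes summed to 3054 to 4105 CPM in Tom+ CCl4 and to 1294 to 2189 CPM in Tom- CCl4, and the 6 zone 1 genes summed to 2838 to 3657 CPM against 4524 to 5671 CPM. All 7 zone 3 genes were higher in Tom+ cells in CCl4, with a median log2 fold change of 1.41 and none called, and all 6 zone 1 genes were lower, with a median of -0.95 and 3 called. In oil the signs were mostly the opposite, without a call. All 7 zone 3 genes were lower in Tom+ oil cells, with a median of -1.15, and 5 of the 6 zone 1 genes were higher, with a median of 0.26. The summed zone 3 levels of the oil groups overlapped, at 1905 to 5003 CPM in Tom- and 737 to 2444 CPM in Tom+ cells. These oil values include the 2 libraries in doubt. The part of the lobular markers in the differences between the fractions was not tested.

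In oil-treated mice none of the 10 genes passed between Tom+ and Tom- cells, and 0% of the features did. At an unadjusted p under 0.05 there were 2 of the 10, and DESeq2 and limma-voom called 0, again without a share of all features. The groups did not overlap for 2 genes, Ghr and Elovl3, where this was so for 11.7% of features. Elovl3 was lower in Tom+ cells in 3 of 3 pairs, with a fitted log2 fold change of -1.74 (SE 0.45). With the block it was -1.81 (SE 0.31) and passed, where 0.234% of features passed. The reporter was alike within oil pair 1 (1793 and 1546 CPM) and pair 2 (157 and 135 CPM), so only pair 3 differed in it. Without the 2 oil libraries in doubt, and without the block, Elovl3 was at -2.14 (SE 0.57) and did not pass, and no feature passed. Socs2 was higher in Tom+ cells by 1.03 (SE 0.43) and by 0.60 (SE 0.42) without those 2 libraries. Without Tom- oil replicate 3 it was 1.89 (SE 0.20) and passed.

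The difference between fractions in CCl4 minus that in oil asks whether the fractions differ in the same way under both treatments. None of the 10 genes passed both thresholds in this interaction, where 1.17% of features did. There were 5 at an unadjusted p under 0.05, DESeq2 called 3 and limma-voom 0, again without a share of all features. With the replicate number as a block, 4 passed, where 5.48% of features did: Cish at -1.28 (SE 0.20), Elovl3 at 3.43 (SE 0.86), Cux2 at -0.85 (SE 0.15) and Igfals at -0.82 (SE 0.14). Cish and Cux2 were higher in Tom+ cells in 3 of 3 oil pairs and lower in 3 of 3 CCl4 pairs, and Elovl3 and Slco1a1 did the opposite. A turn of this kind in every pair was found for 11.8% of the features tested, and these 4 genes were picked out for it after their values were seen. The zonation markers given above also turned between oil and CCl4. Without the 2 oil libraries in doubt, and without the block, the interaction was -1.42 for Cish, 3.73 for Elovl3, -0.86 for Cux2 and -0.69 for Igfals, none past both thresholds, where 0.85% of features passed. That fit also called none of the 10 between the fractions in CCl4, where 1.98% of features passed. The oil pairs numbered 1 and 2 each include a library in doubt, and Elovl3 had 8 counts or fewer in every CCl4 library.

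**Figure D3:**
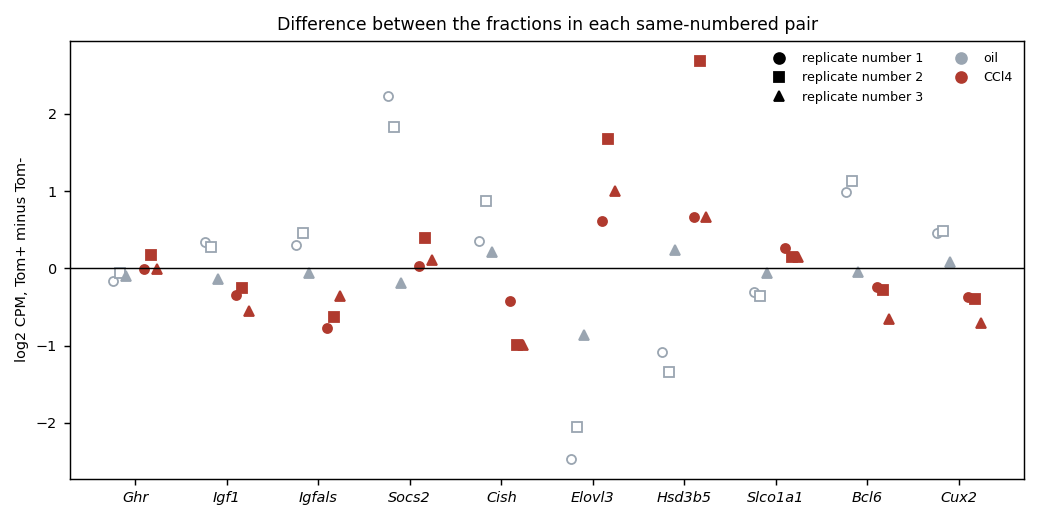
Difference in log2 CPM between Tom+ and Tom- cells in each same-numbered pair for the 10 genes, grey for oil and red for CCl4, with a symbol for each replicate number. Open symbols are the oil pairs that hold a library in doubt, and Cish, Cux2, Elovl3 and Slco1a1 lie on opposite sides of 0 in oil and in CCl4.

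Other genes of the pathway were described from 5 lists with 64 genes, of which 62 could be tested. The lists were written from general knowledge with earlier results of these data known. With CCl4 against oil, 6.33% of the features tested were called higher and 1.59% lower in Tom- cells, and 2.9% and 2.34% in Tom+ cells. Since the lists were written with results known, nothing is read from how their counts compare with these shares. The 17 genes of growth hormone, JAK2 and STAT5 signalling held 2 genes called higher and none lower in Tom- cells with CCl4, and 1 higher and none lower in Tom+ cells, with median log2 fold changes of -0.11 and -0.11, where the median over all features was near 0 in both. Sirpa, a membrane glycoprotein that JAK2 phosphorylates and that macrophages also carry, rose by 1.85 in Tom- cells (SE 0.38, adjusted p = 0.011, edgeR) and by 1.48 in Tom+ cells (SE 0.38, adjusted p = 0.0359), and without the 2 oil libraries in doubt by 1.61 (adjusted p = 0.0376) and 1.30 (adjusted p = 0.0925). Socs3, an inhibitor of cytokine receptor signals, rose by 1.69 in Tom- cells (SE 0.46, adjusted p = 0.0331, edgeR), and did not pass without those libraries (adjusted p = 0.13). Among the Tom- CCl4 libraries Socs3 was at 7.51, 10.1 and 24.9 CPM, and without the third of these the change was 1 (adjusted p = 0.0778). Socs3 in Tom- cells passed in 6 of 12 fits that left out 1 library, and Sirpa passed in all 12 in Tom- and in 4 of 12 in Tom+ cells. In Tom+ cells Socs3 had a log2 fold change of 1.47 (adjusted p = 0.0733), and passed with the block (1.34, adjusted p = 0.0245).

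The kinase and the STAT5 genes themselves did not pass both thresholds. Jak2 was between 15.3 and 21 CPM in all 12 libraries. Stat5b was at 131, 125 and 137 CPM in Tom- oil and at 110, 91.3 and 73.1 CPM in Tom- CCl4, a log2 fold change of -0.52 (SE 0.16, adjusted p = 0.0386, edgeR) that was inside the fold threshold, and in Tom+ cells it was -0.51 (SE 0.16, adjusted p = 0.0586). The adjusted p of Stat5b was 0.121 and 0.13 without the 2 oil libraries in doubt, by edgeR. All 6 CCl4 libraries were below all 6 oil libraries for Stat5b. Stat5a had log2 fold changes of -0.37 (adjusted p = 0.594) and -0.76 (adjusted p = 0.324) by edgeR, with CCl4 libraries that ran from 23.4 to 70.1 CPM. None of the 9 liver factors of growth hormone responses was called in either fraction by edgeR, DESeq2 or limma-voom, with 2 in Tom- and 3 in Tom+ cells at an unadjusted p under 0.05 by edgeR. Hnf4a had log2 fold changes of -0.19 (adjusted p = 0.368, edgeR) in Tom- and 0.22 (adjusted p = 0.369) in Tom+ cells, and Onecut1, which encodes HNF6, had 0.02 (adjusted p = 0.982) and -0.61 (adjusted p = 0.38).

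In the IGF axis, 2 of 7 genes tested rose in Tom- cells and 1 in Tom+ cells, and none fell, beside 6.33% and 2.9% of features called higher. Igfbp3, a binding protein that carries IGF1 together with the Igfals product, rose from 0.574 to 5.61 CPM in Tom- cells, a log2 fold change of 3.28 (SE 0.43, adjusted p = 0.000541, edgeR), and from 1.27 to 3.83 CPM in Tom+ cells, at 1.61 (SE 0.39, adjusted p = 0.0214). The second was 1.23 (adjusted p = 0.052) without the 2 oil libraries in doubt. Igf1r, the IGF1 receptor, which hepatocytes carry at a low level, rose from 0.451 to 1.7 CPM in Tom- cells, at 1.90 (SE 0.47, adjusted p = 0.0159, edgeR), and at 1.65 (adjusted p = 0.0718) without those libraries. Of the 12 fits that left out 1 library, Igfbp3 passed in 12 in Tom- and 9 in Tom+ cells, and Igf1r in 9. Stellate and endothelial markers rose in the same comparison, as given above.

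Of the 13 male-biased genes tested, 7 fell in Tom- cells and 4 in Tom+ cells, and none rose, with medians of -1.19 and -1.66. Of all features tested, 1.59% and 2.34% were called lower in the same comparisons, and nothing is read from the difference. Without the 2 oil libraries in doubt the counts were 6 and 4, beside 5.46% and 3.5% of features called in either direction. Selenbp2, a selenium binding protein, fell from 141 to 17.4 CPM in Tom- cells, a log2 fold change of -3.02 (SE 0.34, adjusted p = 0.000757, edgeR), and from 199 to 14.9 CPM in Tom+ cells, at -3.73 (SE 0.35, adjusted p = 0.000258). Cyp7b1, an oxysterol hydroxylase, fell by 1.90 (adjusted p = 0.00464) in Tom- and by 2.41 (adjusted p = 0.00204) in Tom+ cells by edgeR. Susd4, a complement regulator, fell by 4.71 (adjusted p = 0.000845) and by 2.70 (adjusted p = 0.00905), and Nox4, an NADPH oxidase, by 1.19 (adjusted p = 5.93e-05) and by 0.92 (adjusted p = 0.000381). All 4 also passed in both fractions without the 2 oil libraries in doubt, with adjusted p from 0.000744 (Susd4 in Tom- cells, edgeR) to 0.0215 (Susd4 in Tom+ cells), and they passed in all 12 fits that left out 1 library. These 4 genes were lower in all 6 CCl4 libraries than in all 6 oil libraries. Cyp4a12a and Cyp4a12b, fatty acid hydroxylases with near-identical copies, and Capn8, a calpain, passed in Tom- cells and not in Tom+ cells. Capn8 passed in 2 of 12 fits that left out 1 library and Cyp4a12a in 4, whereas Cyp4a12b passed in all 12. With limma-voom in Tom- cells, and with counts summed over both fractions, none of the 3 passed. With the 2 oil libraries in doubt left out, Cyp4a12a (adjusted p = 0.0254, edgeR) and Cyp4a12b (adjusted p = 0.0363) passed and Capn8 (adjusted p = 0.237) did not. Capn8 did not pass with the block (-2.85, adjusted p = 0.0635, edgeR). Whether the fractions differ was tested by the interaction, which none of the 3 passed without the block and Cyp4a12a passed with it (adjusted p = 0.0465, edgeR). Cyp4a12b held 2 counts in all of Tom- CCl4 and 202 in Tom- oil, an oil level 89.8 times that in CCl4 (95% exact interval 24.5 to 746, counting error only). The Cyp4a12a level ran from 0.294 to 12.8 CPM among the oil libraries alone.

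The 16 female-biased genes did not rise together. In Tom- cells 1 rose and 3 fell with CCl4, and in Tom+ cells 2 rose and 2 fell, with medians of 0.39 and -0.13. The shares of all features called higher and lower were 6.33% and 1.59% in Tom- and 2.9% and 2.34% in Tom+ cells. In each fraction 1 of the genes that fell is counted here and not described. Sult3a1, a sulfotransferase, fell from 24 to 0.617 CPM in Tom- cells, at -5.32 (SE 0.94, adjusted p = 0.00686, edgeR), and from 11.2 to 0.619 CPM in Tom+ cells, at -4.22 (SE 0.89, adjusted p = 0.0203). Sult3a1 was at -5.64 (adjusted p = 0.00454, edgeR) and -3.21 (adjusted p = 0.0333) without the 2 oil libraries in doubt, and the second passed in 10 of 12 fits that left out 1 library. With limma-voom Sult3a1 passed in neither fraction. Acot3, a peroxisomal thioesterase, rose by 0.96 (SE 0.23, adjusted p = 0.017, edgeR) in Tom- and by 1.19 (SE 0.23, adjusted p = 0.00902) in Tom+ cells, and the first was 0.79 (adjusted p = 0.0721) without the 2 oil libraries in doubt. Tox, a nuclear factor, fell by 1.58 (adjusted p = 0.0323, edgeR) in Tom- cells, and Ntrk2, a neurotrophin receptor, rose by 3.50 (adjusted p = 0.0456) in Tom+ cells, and by 3.76 (adjusted p = 0.15) without those libraries. Ntrk2 passed in 3 of 12 fits that left out 1 library, Tox in 8, and Acot3 in 9 in Tom- and 12 in Tom+ cells. Tox was at -1.85 (adjusted p = 0.0395, edgeR) without the 2 oil libraries in doubt. With the block by number, which is arbitrary between oil and CCl4 libraries, Cyp2b13 was also called lower in both fractions (adjusted p = 0.00347 and 0.0172, edgeR). Cyp2b9 in Tom+ cells (adjusted p = 0.0452, edgeR) and Atp6v0d2 in Tom- cells (adjusted p = 0.0173) were called lower as well. The P450 gene Cyp2b9 was already at 332 to 397 CPM in all 6 oil libraries. The P450 genes Cyp3a44 and Cyp3a41a had higher means with CCl4 in both fractions and were not called by edgeR. Mean Cyp3a44 went from 54.8 to 312 CPM in Tom- and from 74.4 to 352 CPM in Tom+ cells, without overlap. Mean Cyp3a41a went from 127 to 456 CPM in Tom- cells, with overlap, and from 113 to 543 CPM in Tom+ cells, without.

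**Figure D4:**
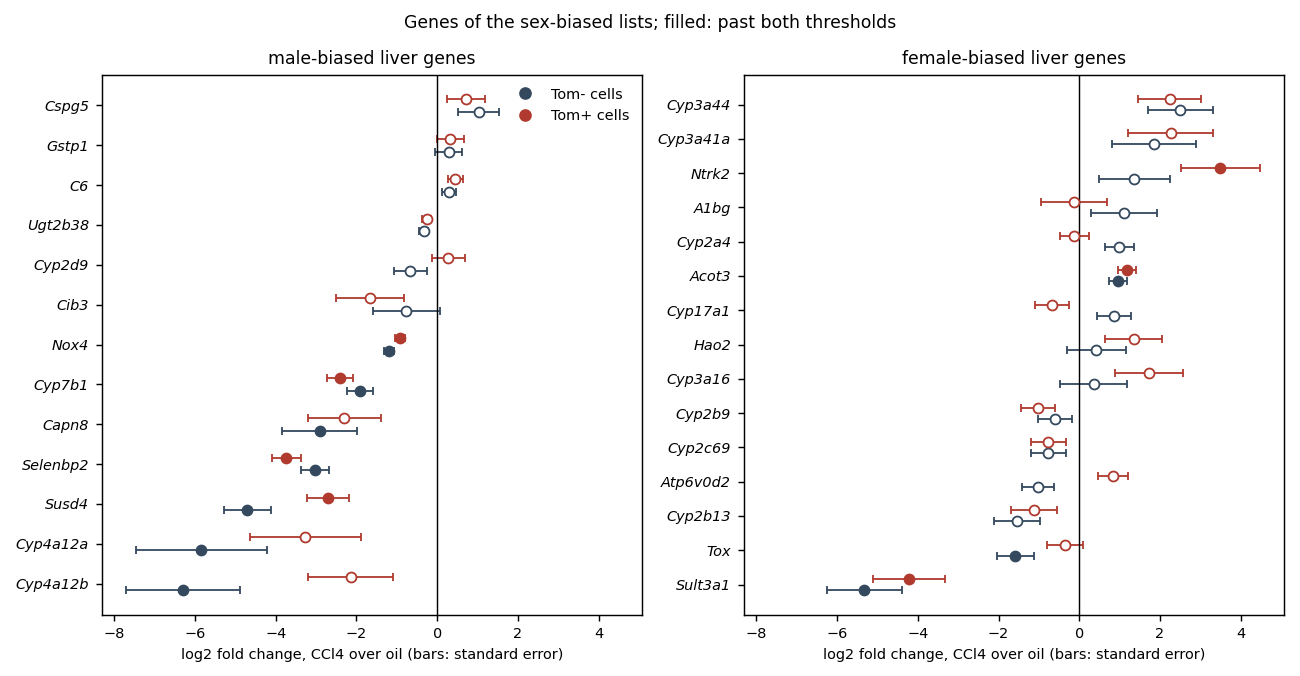
Log2 fold change of CCl4 over oil, with standard errors as bars, for the tested genes of the male-biased list (left) and the female-biased list (right, 1 gene not drawn) in Tom- (dark) and Tom+ (red) cells. Filled points passed both thresholds, and the filled points of the male-biased list all lie below 0 while those of the female-biased list lie on both sides.

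Between Tom+ and Tom- cells none of the 62 list genes was called in CCl4 or in oil, nor in the interaction, by edgeR, with 5, 4 and 10 at an unadjusted p under 0.05. DESeq2 called 1, 0 and 3, and limma-voom none. With the replicate number as a block, 3 of 62 were called in CCl4, where 3.98% of features were: Susd4, at 1.2 (adjusted p = 0.00386, edgeR), Atp6v0d2, at 1.26 (adjusted p = 0.00851), and A1bg, at -1.38 (adjusted p = 4.51e-07). Also 3 of 62 were called in oil with the block, where 0.234% of features were: Cyp2d9, at -0.997 (adjusted p = 4.92e-05, edgeR), Susd4, at -0.80 (adjusted p = 0.0301), and Sult3a1, at -1.22 (adjusted p = 0.00115). In the interaction the same fit called 9 of 62, where 5.48% of features passed. Above 0 were Susd4 at 2 (adjusted p = 0.000638, edgeR), Cyp4a12a at 2.94 (adjusted p = 0.0465), Ntrk2 at 2.29 (adjusted p = 0.0248), Atp6v0d2 at 1.91 (adjusted p = 0.00779), Sult3a1 at 1.14 (adjusted p = 0.024) and Cyp2d9 at 0.91 (adjusted p = 0.000135). Below 0 were Igfbp3 at -1.63 (adjusted p = 0.00398, edgeR), A1bg at -1.22 (adjusted p = 1.47e-05) and Cyp2a4 at -1.16 (adjusted p = 0.00414). In oil the reporter was alike within pair 1 (1793 and 1546 CPM) and within pair 2 (157 and 135 CPM), so only pair 3 differed in it. Without the 2 oil libraries in doubt, and without the block, no list gene was called in oil or in the interaction. There 0% and 0.85% of features passed.

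The genes whose levels followed those of the 10 most closely over the 12 libraries were found by the root mean square difference of log2 CPM, each gene centred on its own mean. The nearest to Slco1a1 were 4930534D22Rik (0.33), Mup11 (0.47) and Mup-ps7 (0.50), where Slco1a1 itself deviated by 1.53 from its mean. For Elovl3 they were Mup-ps16 (0.75), Gm13775 (0.80) and Mup1 (0.81), beside its own 2.57. Genes of the major urinary proteins, which are male-biased and near-identical to each other, were among the 3 nearest to each of these 2 genes. For Hsd3b5 they were Olig1 (0.55), Gm40787 (0.67) and Slco1a1 (0.69), beside 1.45. Mean levels were low for Gm40787 (0.167 CPM), Mup-ps7 (0.185), Mup-ps16 (0.853), Gm13775 (1.06), Olig1 (1.08) and 4930534D22Rik (1.1). At such levels log2 CPM depends on the prior count. Slco1a1 (61.7 CPM), Mup1 (124) and Mup11 (712) were higher. For Cux2 they were Pcgf2 (0.21), Trip10 (0.25) and Angptl8 (0.25), beside 0.71, and for Bcl6 they were Rbm20 (0.39), Adamts2 (0.45) and Ppp1r3c (0.50), beside 0.98. Ghr varied little, at 0.20, and Aldh6a1, Gphn and Smarca2 came within 0.06 to 0.07 of it. Igf1 had Lifr (0.14), Pomk (0.14) and Igfbp1 (0.15), and Igfals had Tmem63a (0.10), Slc30a10 (0.12) and Dhrs3 (0.12). For Socs2 the nearest were Csf1 (0.32), Anapc10 (0.36) and Trim80 (0.36), and for Cish they were Gm17041 (0.18), Cxcl11 (0.22) and Porcn (0.24). The last 2 genes had own deviations of 0.67 and 0.47, so their likeness to others was less close relative to their own spread than that of Slco1a1.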

How the data were processed

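RNA of 12 hepatocyte libraries was measured, and each library was placed in its group by the labels, with 3 libraries per group. The submitters' processing notes name fastp (v0.23.2), HISAT2 (v2.1.0), DESeq2 (v1.42.1) and the build mm10. The deposited values are estimated counts per gene that the authors did not normalise, with 30.4% to 32.9% of the non-zero values not whole, as happens when a read is shared between genes. The counting program was not given in the sources used here. The counts were rounded to whole numbers, whereas whole counts had been assumed when the tests were chosen. Gene symbols came from GENCODE vM21 (54723 of 54839 features, 99.8%), and promoters from RefSeq.

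edgeR (v4.0.16) in R (v4.3.3) was fitted to all 12 libraries with a term for the group, after filterByExpr and scaling by the trimmed mean of M values, and the robust quasi-likelihood test was used with Benjamini-Hochberg adjustment over 17121 features. Thresholds were an adjusted p of 0.05 and a log2 fold change of 0.75. Standard errors were the log2 fold change divided by the root of the F statistic. TPM used the deposited gene lengths. The fits were tested on simulated data. DESeq2 (v1.42.0), limma (v3.58.1) and further settings were alternatives.

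The labels number the libraries 1 to 3 in every group. Deviations from the group mean were shared by the Tom+ and Tom- libraries of 1 number (Pearson's r across 9662 genes with a mean of 5 CPM or more between 0.372 and 0.693 in all 6 pairs), so the numbers pair the fractions. Same-numbered oil and CCl4 libraries gave 0.0189 to 0.309, and these share only a number. The block in the comparisons of CCl4 with oil joins them all the same, so its calls rest in part on an arbitrary pairing. Nothing states that the replicates are separate mice, so p-values measure the spread between these libraries. Intervals and limits cover counting error only.

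The 10 genes and the lists were chosen with earlier results of these data known. All 10 genes are described. Jak2, Stat5a, Stat5b, Hnf4a and Onecut1 are named in any case, along with every list gene called in a comparison where a list had 10 or fewer calls, and the 3 genes nearest to each of the 10. The result of 1 list gene is not reported here, although the counts include it.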

Additional observations from a re-analysis of the deposited data

Results flagged for a closer look

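In 4 of the 10 genes the difference between the fractions turned from oil to CCl4 in every same-numbered pair, which drew attention to them and for which they were picked out here, and 11.8% of all features tested turned in this way. The difference in CCl4 minus that in oil was -1.29 for Cish, 3.34 for Elovl3, 0.47 for Slco1a1 and -0.90 for Cux2 on the log2 scale. None of these passed both thresholds in the interaction of edgeR without the replicate number as a block, and Cish, Elovl3 and Cux2 passed with it. For Elovl3 the CCl4 pairs held only 2, 0 and 2 counts in Tom- and 8, 4 and 6 counts in Tom+ cells. Pairs numbered 1 and 2 of the oil groups include the libraries whose reporter goes against the label, and without those 2 libraries the values were -1.42, 3.73, 0.53 and -0.86. Igfbp3 at -1.67 and Susd4 at 2.01 turned in the same way, with adjusted p = 0.14 and 0.192 without the block and 0.00398 and 0.000638 with it by edgeR. The zonation markers turned as well: all 7 zone 3 genes were lower in Tom+ than Tom- cells in oil (median log2 fold change -1.15) and higher in CCl4 (1.41), and of the 6 zone 1 genes 5 were higher in oil (0.26) and all 6 lower in CCl4 (-0.95). The 6 endothelial markers were higher in Tom+ cells in oil and lower in CCl4 (0.18 and -0.84). The oil values of the markers include the 2 libraries whose reporter goes against the label. The part of these markers in the differences was not tested.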

How the results depend on the processing

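In the comparisons of CCl4 with oil, the size factors of DESeq2 (RLE) or upper-quartile factors left 4 of the 10 genes called in Tom- and 3 in Tom+ cells, DESeq2 itself called 5 and 4, and limma-voom 4 and 2. Requiring 10 counts in every library removed Elovl3 and Hsd3b5 from the test and left 2 in Tom- cells. Leaving out 1 library gave 4 to 5 of the 10 genes in Tom- and 2 to 4 in Tom+ cells, 0 to 1 between the fractions in oil and 0 to 2 in the interaction. Between the fractions in CCl4, DESeq2, the replicate block and the adjusted p alone each called 1 of the 10 genes, where the fit reported called 0, and in oil the block called 1. In the interaction, no filter and the filter of 10 counts each called 1, DESeq2 called 3 and the block 4. Beside these and the calls named in the report, the replicate block changed no call of the 10 genes. Here and below, where no share of all features is given for a setting, that share was not counted, and nothing is read from such counts.

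Of the list genes, 15 were called in Tom- and 10 in Tom+ cells, and 9 in Tom- cells when counts were summed over both fractions. Of all features, 6.33% were called higher and 1.59% lower in Tom- cells, 2.9% and 2.34% in Tom+ cells, and 4.78% in the summed counts. Leaving out 1 library gave 9 to 15 and 6 to 11, the lowest without Tom- oil replicate 2 and without Tom+ CCl4 replicate 3. It gave 0 to 1 between the fractions in CCl4 and 0 to 1 in the interaction. Between the fractions in CCl4 the adjusted p alone called 2, DESeq2 called 1 and the block 3, in oil the block called 3, and in the interaction DESeq2 called 3 and the block 9. Within the replicate block the list genes called were 16 in Tom- and 13 in Tom+ cells, and the share of all features was not counted for the block in these comparisons. The causes were not tested. For a count over the alternatives, the fits that left out 1 library entered only as their lowest and highest log2 fold change. On this count 21 of 548 values of the 10 genes moved by more than the spread between replicates and no called value changed sign. Of 291 such values of called list genes, 47 lost their call. With 250 bases before the start in place of the whole window, 4 of 13 promoters held TTCNNNGAA. Depth limits Elovl3 and Hsd3b5, which had 8 or fewer counts in each Tom- CCl4 library.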
